A study of Homo sapiens with 6 samples.

Results

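The genes described here are the collagen hydroxylases and lysyl oxidases, enzymes that modify proline and lysine residues of collagen. Members were chosen by gene symbol, with earlier results of these data known, and 10 of the 60708 genes in the table were taken as the group. They are the prolyl 4-hydroxylase subunits P4HA1 and P4HA2, the lysyl hydroxylases PLOD1, PLOD2 and PLOD3, and the lysyl oxidases LOX, LOXL1, LOXL2, LOXL3 and LOXL4. P4HA3 and the prolyl 3-hydroxylases P3H1, P3H2 and P3H3 are not among the members and are given below with other prolyl hydroxylation genes. Their mRNA levels were measured by RNA-seq in Caki-1, a human clear cell renal carcinoma line, in 3 vector control samples (VC) and 3 samples with VHL knocked out (VHL-KO). Both groups went through lentiviral CRISPR infection. The VC cells received the vector alone and have a wild-type VHL genotype, and the VHL-KO cells received an sgRNA against VHL. The labels describe puromycin selection and clonal knockout lines. Which guide or clone each sample came from, and whether the samples of a group were separate cultures, is not given in the sources used here. Read totals over all genes were 31789923, 28463579 and 34881739 for VC replicates 1 to 3, and for VHL-KO replicates 1 to 3 they were 29139722, 22805385 and 22628246.

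Collagen chains are hydroxylated in the endoplasmic reticulum before they fold. Prolyl 4-hydroxylase is a tetramer of catalytic alpha subunits (P4HA1, P4HA2 or P4HA3) and the beta subunit P4HB, and its product, 4-hydroxyproline, stabilizes the triple helix. Lysyl hydroxylases make hydroxylysine, which carries sugars and takes part in cross-links. Both kinds of enzyme use oxygen, 2-oxoglutarate, iron and ascorbate, as the prolyl hydroxylases that mark HIFα for VHL also do. Lysyl oxidases are secreted copper enzymes that oxidize lysine and hydroxylysine side chains so that collagen and elastin fibers can be cross-linked. Several members, among them P4HA1, PLOD2 and LOX, are known hypoxia-inducible genes.

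VHL is the part of a ubiquitin ligase that recognizes hydroxylated HIFα. Its mRNA was at 42.6, 37.8 and 40.1 TMM-normalized CPM (counts relative to the library total, with trimmed-mean scaling between samples) in VC and at 34.8, 30.4 and 30.5 CPM in VHL-KO. All VHL-KO samples were below all VC samples, but the transcript was still present in each of them. The study checked the knockout in Caki-1 cells by immunoblot, which measures protein and not mRNA. The log2 fold change was -0.33 (SE 0.11, adjusted p = 0.0109 in the quasi-likelihood F test of edgeR, with Benjamini-Hochberg correction over 17401 genes, the test behind all adjusted p-values given here unless another tool is named). The call was lost without VC replicate 1 (-0.28, adjusted p = 0.0862), without VHL-KO replicate 2 (-0.30, 0.0621) and with upper quartile scaling (-0.22, 0.0905), in a range of 0.000293 to 0.0905 over 15 alternatives. The value was -0.20 with GC and length offsets and -0.53 with library size alone, both still called. Of the exonic bases of VHL, 23.5% overlap a lncRNA on the opposite strand, and the counting is not stated to use strand.

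Of the 10 members, 9 had counts and passed the filter of at least 10 reads in any sample. LOXL1 had 0 counts in all 6 samples, which allows a level of up to 0.0790 CPM in the deepest sample and 0.141 in the shallowest. Of the 9 members tested, 8 were higher in VHL-KO and 0 were lower, where 28.5% of all tested genes were called higher and 31.2% lower. LOXL3 was the member that did not pass the threshold. The median log2 fold change of the 9 members was 0.81, against -0.01 over all tested genes. In 8 of the 9 members the values of both groups did not overlap, which held for 64.7% of all tested genes. The call of PLOD3 depended on the processing, and its direction turned with offsets for GC content and length. LOX, LOXL2, PLOD1, P4HA1, P4HA2, PLOD2 and LOXL4 were called higher under all 15 alternatives. In RNA from a whole culture, a change in the number of cells that express a gene and a change in RNA per cell cannot be told apart.

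**Figure D1:**
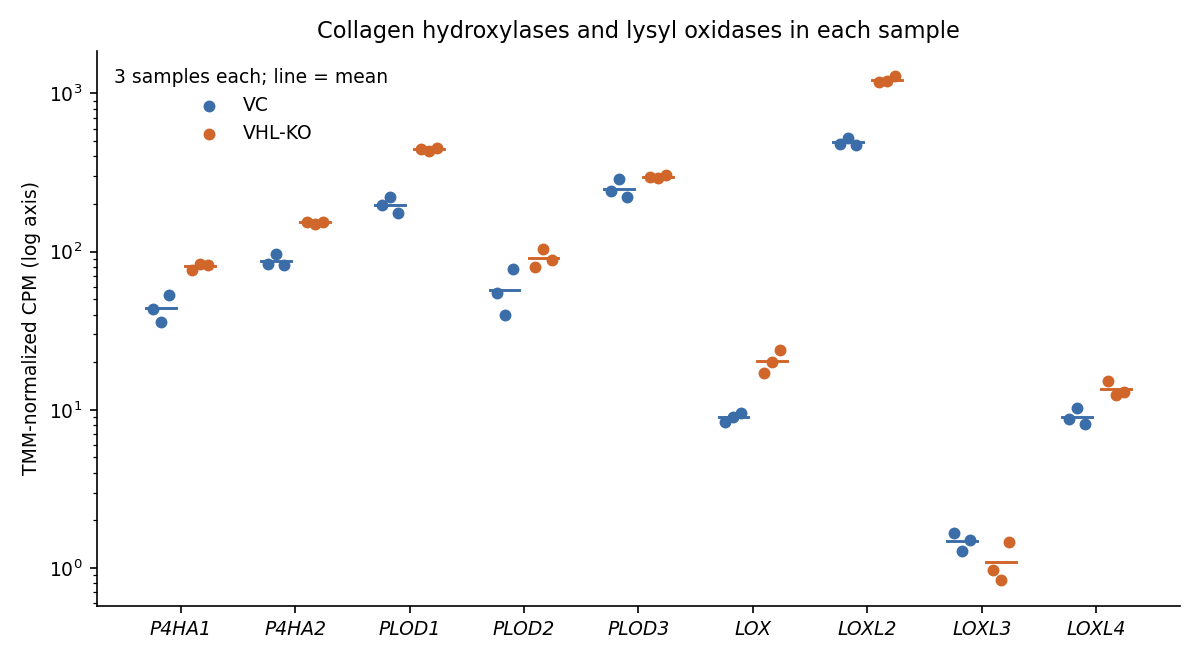
TMM-normalized CPM (log axis) of the 9 members with counts in each of 3 VC and 3 VHL-KO samples, with a line at each group mean. All VHL-KO points lie above all VC points for each member except LOXL3. The gap is narrow for PLOD2 (77.1 against 79.8 CPM) and PLOD3 (288.5 against 290.8 CPM). The direction of PLOD3 turned with GC and length offsets.

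Each list of markers of other cell types summed to less than the renal epithelial markers in every sample. Of 10 renal epithelial markers 8 were tested, with 5 higher and 1 lower in VHL-KO (3 and 2 with library size alone), and their summed level was 1652, 1863 and 1505 CPM in VC and 2305, 2222 and 2238 CPM in VHL-KO. KRT8 was the most abundant of them, and PAX2 and LRP2 were at 0. The 10 fibroblast markers, of which 3 were tested, 0 higher and 2 lower (1 higher without VHL-KO replicate 2), summed to between 37.4 and 47.4 CPM in VC and between 26.1 and 30.3 CPM in VHL-KO. COL1A1 made up most of this, and COL3A1 and LUM were at 0. The 6 endothelial markers summed to at most 0.711 CPM in any sample, with TEK and CLDN5 at 0. PECAM1, the most abundant in VHL-KO and the 1 tested, was called higher (log2 fold change 2.73, adjusted p = 0.0117) on 1, 5 and 0 counts in VC against 14, 7 and 9 in VHL-KO, a ratio of 7.31 (95% counting interval 2.995 to 21.5). The call was lost without VC replicate 3 (2.11, adjusted p = 0.0648, range 0.00214 to 0.0648), the value was 4.57 without VC replicate 2, and PECAM1 did not pass the filter when VHL-KO replicate 1 was left out. KDR, the most abundant of them in VC, went the other way, with 4, 0 and 9 counts in VC and 0 in each VHL-KO sample. It did not pass the filter, and without a filter it was called lower (adjusted p = 0.0492). Of the 6 leukocyte markers, CD14 was the most abundant and was called higher (1.47, and 0.96 with GC and length offsets). The list summed to between 1.37 and 1.78 CPM in VC and between 3.99 and 5.52 CPM in VHL-KO, with PTPRC at no more than 1 count in any sample and CD3E at 0. The summed renal epithelial and leukocyte levels and PECAM1 moved with the members, the fibroblast sum and KDR moved the other way, and their part in the members' change was not tested.

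Because most of the members moved the same way, the 250 bases before their RefSeq transcription starts (GRCh38.p14, where 9 of the 10 members had an entry, all except LOXL2) were searched for ACGTG and GCGTG, the 5-base cores of the sequence that HIF is known to bind. Both strands were searched, so that a CACGTG counts as a match on each strand. Of 35116 promoters, 43.2% held at least 1 core, 18.5% ACGTG and 32.2% GCGTG. At the first listed start, 4 of the 9 members held a core, a share close to that of all promoters. LOX held 4 ACGTG, as 3.22% of promoters hold 4 or more cores. PLOD2 held 3 cores (7.76% of promoters hold at least that many), PLOD1 held 2 GCGTG (19.4%) and P4HA1 held 1 ACGTG. Starts 2 and 3 of LOX held 2 cores each, and start 2 of LOXL3 held 1. No core was in this window of P4HA2, PLOD3, LOXL1, LOXL4 or the first start of LOXL3, and a match is a description of the letters, not of a bound site. The stretches around the cores at the first starts are shown 5′ to 3′ on the strand of the gene, with the cores in capitals. CACGT is ACGTG read on the opposite strand.
LOX chr5:122078430-122078454, minus strand: tccctgtgcaACGTGtctgggggga
LOX chr5:122078350-122078378, minus strand: ttgCACGTttccaatcgcattACGTGaac
LOX chr5:122078287-122078311, minus strand: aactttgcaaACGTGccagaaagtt
PLOD2 chr3:146161374-146161403, minus strand: agcgctGCGTGagcctccaCACGTagccgc
PLOD2 chr3:146161316-146161340, minus strand: aacagtccagACGTGgggcccagga
PLOD1 chr1:11934639-11934663, plus strand: gcgggggaggGCGTGgaggggcggg
PLOD1 chr1:11934682-11934706, plus strand: cgggcccagtGCGTGgcagcgggac
P4HA1 chr10:73096938-73096962, minus strand: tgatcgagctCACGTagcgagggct

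The first stretch of LOX lies outside every annotated LOX transcript in GENCODE release 44, while the other stretches of LOX and those of PLOD2 and P4HA1 lie in exons of transcripts that begin further upstream. The first stretch of PLOD1 is intronic in such a transcript, and 13 of the 25 bases of the other are exonic. The listed cores of LOX begin at -185, -116, -98 and -42 from its first start, and those of PLOD2 at -213, -200 and -146. Those of PLOD1 begin at -68 and -25, and that of P4HA1 at -86.

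**Figure D2:**
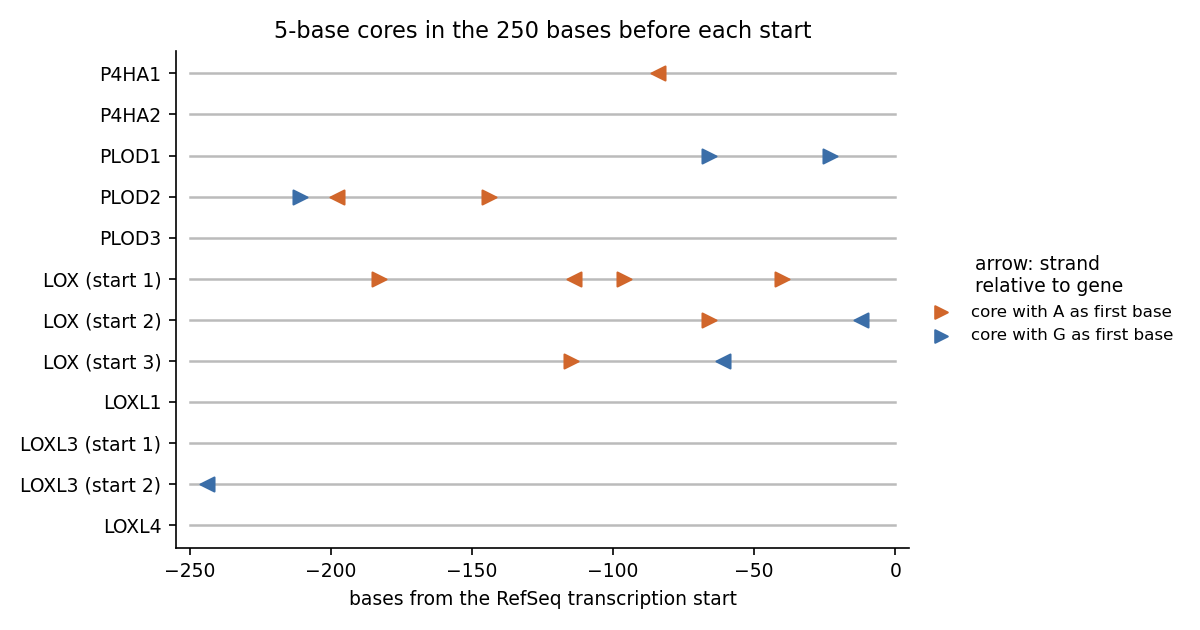
Positions of the 5-base cores in the 250 bases before each RefSeq start of 9 members (all except LOXL2), by distance from the start in bases. Arrows give the strand of the core relative to the gene and the color gives its first base. The first LOX start has 4 cores, PLOD2 has 3, and P4HA2, PLOD3, LOXL1 and LOXL4 have none.

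Among the prolyl 4-hydroxylase subunits, P4HA1 (chromosome 10, 73007217 to 73096974 of GRCh38) was at 43.1, 35.9 and 53.3 CPM in VC and at 76.2, 83.9 and 82.7 CPM in VHL-KO. VC replicate 3 was the highest and VC replicate 2 the lowest control, and no VHL-KO sample came down to them. Its mean rose from 44.1 ± 8.75 to 80.95 ± 4.17 CPM (± SD over 3 samples, as in all values of this form), which is a log2 fold change of 0.87 (SE 0.12, adjusted p = 6.1e-07). P4HA2 (chromosome 5, 132190147 to 132295315) was at 83.1, 96.5 and 81.9 CPM in VC and at 153.4, 150.6 and 154.8 CPM in VHL-KO. Its VHL-KO samples had a CV of 1.41% and lay well above the controls. On average P4HA2 rose from 87.2 ± 8.11 to 152.9 ± 2.16 CPM, a log2 fold change of 0.81 (SE 0.09, adjusted p = 5.9e-08). P4HA1 and P4HA2 thus moved by similar factors, 1.83-fold and 1.75-fold. The ratio of P4HA1 to P4HA2 counts was 0.519, 0.372 and 0.651 in VC and 0.497, 0.557 and 0.534 in VHL-KO, so the VHL-KO ratios lay inside the range of the controls.

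Per kilobase of merged exons, the summed level of the alpha subunits P4HA1, P4HA2 and P4HA3 rose from 23.6 ± 2.08 to 42.3 ± 1.33 RPKM, a ratio of 1.79. P4HA1 supplied 59.9 ± 6.99% of this sum in VC and 61.8 ± 1.43% in VHL-KO, and P4HA2 supplied 36.7 ± 6.02% and 35.7 ± 1.28%. The share of P4HA1 moved by less than the spread between VC samples, and the sign of that difference turned without VC replicate 2 (-1.91 percentage points in place of 1.85). Which subunit was the more abundant depended on the length used. With the longest transcript in place of merged exons, P4HA1 took 43.1 ± 6.99% in VC and 44.7 ± 1.47% in VHL-KO, below P4HA2 with 53.6 ± 6.21% and 52.8 ± 1.37%.

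The lysyl hydroxylases showed unequal changes. PLOD1 (chromosome 1, 11934205 to 11975538), which acts mainly on lysines of the collagen helix, was at 196.4, 221.7 and 174.8 CPM in VC and at 447.4, 433.3 and 454.1 CPM in VHL-KO. The lowest VHL-KO sample was far above the highest control. On average PLOD1 rose from 197.6 ± 23.5 to 444.9 ± 10.6 CPM, a log2 fold change of 1.17 (SE 0.09, adjusted p = 1.2e-10).

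PLOD2 (chromosome 3, 146035139 to 146163725), which is known for hydroxylating telopeptide lysines, was at 54.7, 39.8 and 77.1 CPM in VC and at 79.8, 103.9 and 89.2 CPM in VHL-KO. The controls spread widely, with a CV of 32.8% against 13.4% in VHL-KO, and VC replicate 3 was only just below VHL-KO replicate 1. The mean rose from 57.2 ± 18.8 to 91.0 ± 12.1 CPM, a log2 fold change of 0.67 (SE 0.15, adjusted p = 0.000547). With offsets for GC content and length the value was 1.13 (adjusted p = 1.1e-09). With DESeq2, the tool of the study, it was 0.69 (Wald test, adjusted p = 0.0326). Over the 15 alternatives adjusted p ranged from 3.3e-15 to 0.0326, so DESeq2 gave the weakest call.

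PLOD3 (chromosome 7, 101205977 to 101218420) encodes an enzyme with both lysyl hydroxylase and glycosyltransferase activity. It was at 241.4, 288.5 and 221.8 CPM in VC and at 297.8, 290.8 and 304.1 CPM in VHL-KO. VC replicate 2 came close to the lowest VHL-KO sample. The mean was 250.6 ± 34.3 CPM in VC and 297.6 ± 6.67 CPM in VHL-KO, a log2 fold change of 0.25 (SE 0.10, adjusted p = 0.0281). The call was lost in 9 of 15 alternatives, whose adjusted p ranged from 4.1e-05 to 0.576. Scaled by library size alone the value was 0.06 (0.576), without a filter 0.21 (0.0505), and with GC and length offsets -0.07 (0.318). Without VC replicate 1 it was 0.23 (0.111), without VC replicate 3 it was 0.18 (0.0989), and without VHL-KO replicates 1, 2 and 3 it was 0.26, 0.27 and 0.24 (0.0658, 0.0616 and 0.0748). Without VC replicate 2 it was 0.38 (4.1e-05).

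The balance between PLOD1 and PLOD3, a ratio chosen after its values were seen, needs no scaling between samples. There were 0.814, 0.768 and 0.788 PLOD1 counts for each PLOD3 count in VC and 1.502, 1.490 and 1.493 in VHL-KO. The VC mean was 0.790 ± 0.0228 and the VHL-KO mean 1.495 ± 0.0061, a difference of 0.92 on the log2 scale, so PLOD1 counts exceeded PLOD3 counts in each VHL-KO sample and in no VC sample. Per length, PLOD1 took 43.5 ± 0.937% of the lysyl hydroxylase sum in VC and 58.7 ± 0.477% in VHL-KO, 15.2 percentage points more. PLOD3 took 51.7 ± 1.48% and 36.9 ± 0.173%, a difference of -14.9 points. The share of PLOD2 was 4.76 ± 2.01% in VC and 4.41 ± 0.642% in VHL-KO, a difference smaller than the spread between samples. With the length of the longest transcript the shares of PLOD1 and PLOD3 differed by 15.1 and -14.7 points. The summed level of the family rose from 85.3 ± 9.17 to 142.4 ± 2.63 RPKM, a ratio of 1.67.

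**Figure D3:**
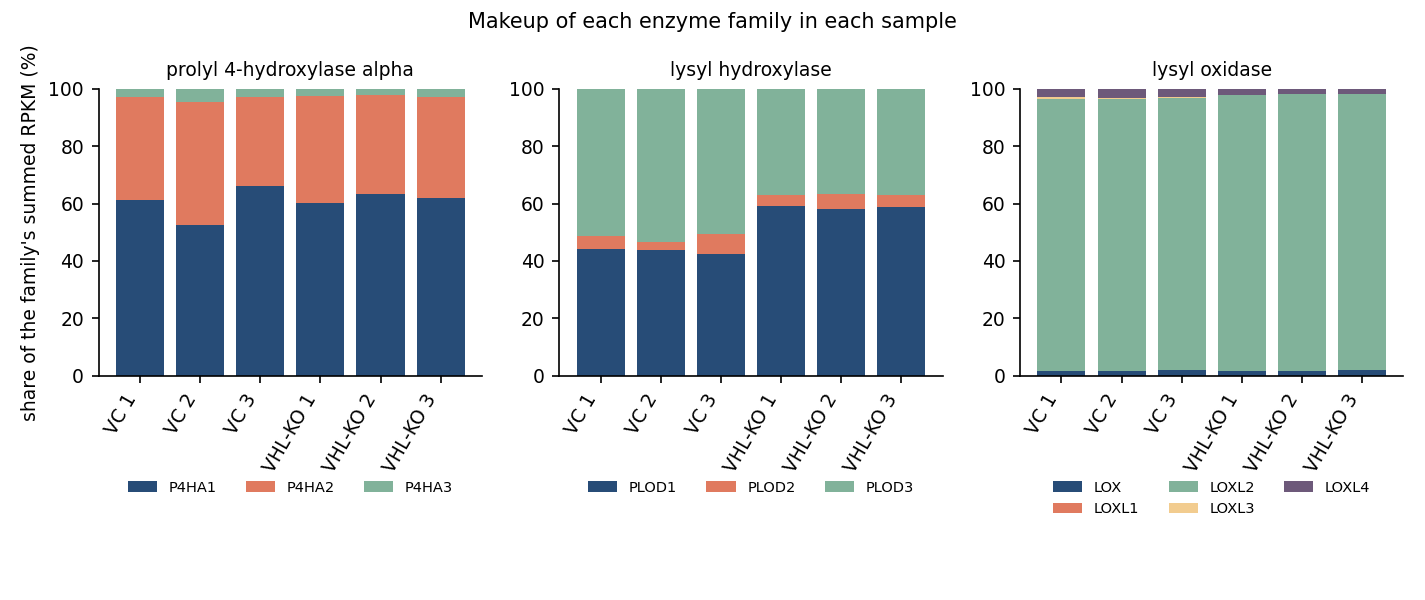
Share of each gene in the summed RPKM (TMM-scaled CPM per kilobase of merged exons) of its enzyme family in each sample, in percent. PLOD1 rises from 43.5% to 58.7% of the lysyl hydroxylases on average, and LOXL2 makes up 94.9% of the lysyl oxidases in VC and 96.4% in VHL-KO.

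LOX (chromosome 5, 122063195 to 122078413), the founding lysyl oxidase, was at 8.43, 9.02 and 9.61 CPM in VC and at 17.2, 19.98 and 24.01 CPM in VHL-KO. Its controls lay close together, and the VHL-KO samples spread more (CV 6.54% and 16.8%) but stayed above them. On average LOX rose from 9.02 ± 0.590 to 20.4 ± 3.43 CPM, a log2 fold change of 1.17 (SE 0.15, adjusted p = 2.0e-07), and the value was 1.599 with GC and length offsets.

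LOXL2 (chromosome 8, 23296897 to 23425328), a lysyl oxidase with scavenger receptor domains, was the most abundant member. It was at 480.5, 526.2 and 469.6 CPM in VC and at 1179, 1201 and 1290 CPM in VHL-KO. The groups were well apart, with a CV of 6.11% in VC and 4.83% in VHL-KO. The mean rose from 492.1 ± 30.04 to 1223 ± 59.1 CPM, a log2 fold change of 1.31 (SE 0.09, adjusted p = 3.8e-12), the largest among the members with TMM scaling. With GC and length offsets it was 1.11, below LOX (1.599), P4HA1 (1.19) and PLOD2 (1.13). Ranked by RPKM among 17355 tested genes with a length, it stood at place 458 in VC and 201 in VHL-KO. LOXL2 supplied 94.9 ± 0.0441% of the RPKM of its family in VC and 96.4 ± 0.121% in VHL-KO, so the rise of the family sum from 86.7 ± 5.28 to 212.1 ± 10.3 RPKM (a ratio of 2.45) was almost that of LOXL2.

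LOXL4 (chromosome 10, 98247690 to 98268194) was at 8.79, 10.3 and 8.09 CPM in VC and at 15.2, 12.4 and 13.04 CPM in VHL-KO. No VHL-KO sample came down to the controls. The mean went from 9.07 ± 1.15 to 13.6 ± 1.46 CPM, a log2 fold change of 0.58 (SE 0.15, adjusted p = 0.00181), and it was 0.34 with GC and length offsets (adjusted p = 0.0188, range 0.000171 to 0.0296). Its share of the family was 2.90 ± 0.192% in VC and 1.78 ± 0.247% in VHL-KO, while the share of LOX was 1.87 ± 0.183% and 1.71 ± 0.208%. LOXL4 mRNA thus went up while its part in the family went down.

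LOXL3 (chromosome 2, 74532258 to 74555690) was the lowest member with counts. Its counts were 57, 38 and 57 in the controls and 26, 18 and 31 after VHL-KO, or 1.48 ± 0.196 and 1.09 ± 0.325 CPM, and the groups overlapped. The log2 fold change was -0.46 with a 95% interval of -1.07 to 0.16 (SE 0.31, adjusted p = 0.218). At this depth no difference was detectable, and it was -0.71 without VHL-KO replicate 3 (adjusted p = 0.0748, range 0.0748 to 0.469). Of its exonic bases, 20.7% lie inside HTRA2 and 4.78% inside DOK1, both on the opposite strand, so reads there may belong to either gene. No other tested member shares more than 5.41% of its exonic bases with another gene.

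**Figure D4:**
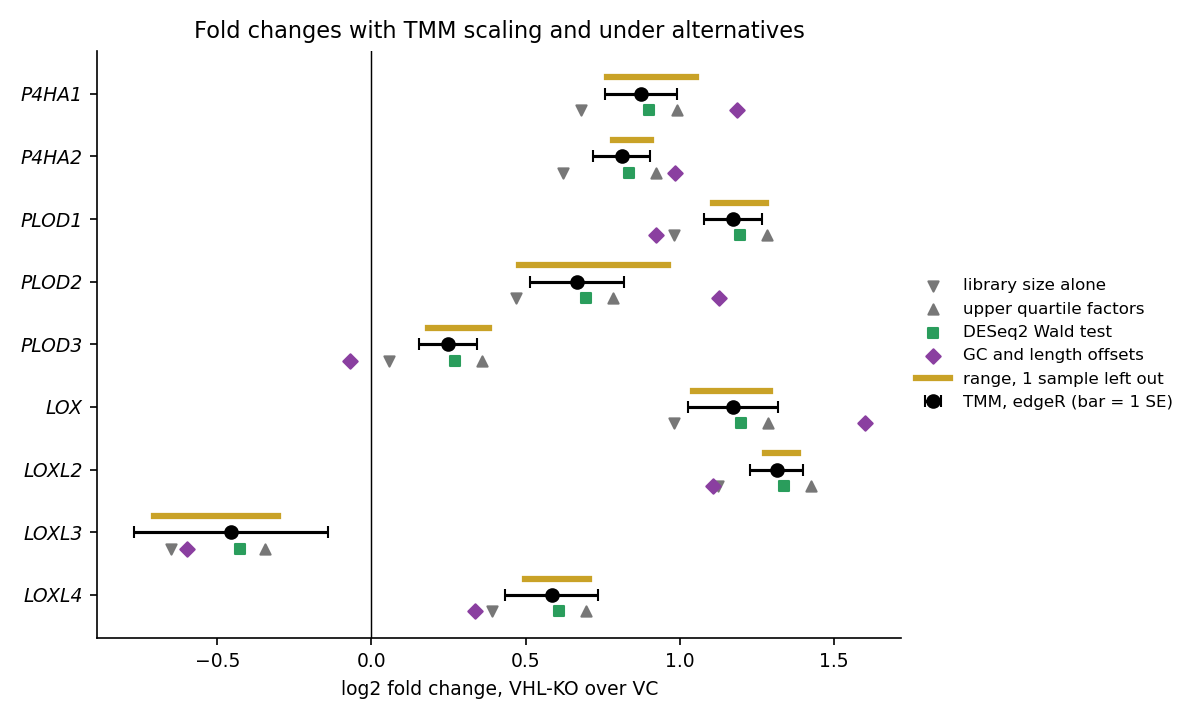
Log2 fold change of VHL-KO over VC for the 9 tested members with TMM scaling (black, bar of 1 SE), under other scalings, DESeq2 and offsets for GC content and length, and the range when 1 sample is left out. PLOD3 is at 0.25 with TMM, 0.06 with library size alone and -0.07 with the offsets, and LOXL3 is below 0 throughout.

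In order of level per length, the VC samples ran from LOXL2 (82.2 ± 5.02 RPKM) through PLOD3 (44.2 ± 6.04), PLOD1 (37.1 ± 4.41), P4HA1 (14.3 ± 2.83), P4HA2 (8.61 ± 0.801), PLOD2 (3.94 ± 1.29), LOXL4 (2.52 ± 0.319) and LOX (1.61 ± 0.105) to LOXL3 (0.328 ± 0.0433), with LOXL1 at 0. The ranges of PLOD3 and PLOD1 overlapped between samples, but within each VC sample PLOD3 was above PLOD1 (42.6 against 36.9, 50.9 against 41.7 and 39.1 against 32.9 RPKM). PLOD2 and LOXL4 did not differ beyond the spread, with PLOD2 above LOXL4 in VC replicates 1 and 3 and below it in VC replicate 2. In VHL-KO, the order was LOXL2 (204.4 ± 9.87 RPKM), PLOD1 (83.6 ± 1.99), PLOD3 (52.5 ± 1.18), P4HA1 (26.2 ± 1.35), P4HA2 (15.1 ± 0.214), PLOD2 (6.27 ± 0.837), LOXL4 (3.77 ± 0.405), LOX (3.64 ± 0.614) and LOXL3 (0.241 ± 0.0720). PLOD1 and PLOD3 changed places, and LOXL4 and LOX no longer differed beyond their spread. PLOD2 and P4HA2 have long merged exons, and with the longest transcript their VC levels were 9.75 ± 3.20 and 19.2 ± 1.78 RPKM, PLOD2 then standing above LOXL4 (2.52 ± 0.319) beyond the spread and P4HA2 above P4HA1 (15.5 ± 3.07) within the spread. In VHL-KO the order of P4HA1 and P4HA2 turned as well, with P4HA2 at 33.6 ± 0.475 and P4HA1 at 28.5 ± 1.47 RPKM, a gap larger than the spread.

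The deviations of single controls followed GC content across all genes and in some of the members. Across all tested genes the median log2 fold change ran from -0.47 below 35% GC to 0.59 at 65% or more, and single VC samples followed GC content too, with VC replicate 2 at -0.30 and VC replicate 3 at 0.28 relative to the VC mean (log2) in the lowest range. P4HA1 (40.9% GC) deviated by -0.28 in VC replicate 2 and 0.29 in VC replicate 3, and PLOD2 (35.5% GC) by -0.47 and 0.48. PLOD1 (58.8%) and PLOD3 (61.4%) deviated the other way, by 0.17 and 0.21 in VC replicate 2 and by -0.17 and -0.17 in VC replicate 3. LOXL2 (57.5%) and LOXL4 (57.3%) also deviated in this direction, by 0.0985 and 0.19 in VC replicate 2 and by -0.0657 and -0.16 in VC replicate 3. LOX, P4HA2 and LOXL3 did not follow the median gene of their GC range. LOX (39.6%) deviated by 0.00152 and 0.0929 in VC replicates 2 and 3, with a narrower range over the controls (0.19) than PLOD1 (0.34) and PLOD3 (0.38). P4HA2 (44.9%) deviated by 0.15 and -0.0863 where the medians of its range were -0.12 and 0.12, and LOXL3 (55.4%), with few counts, by -0.20 and 0.0246. LOX, PLOD2, P4HA1 and P4HA2 rose although the median gene of their GC range was lower in VHL-KO, and their log2 fold changes were larger with offsets for GC content and length (1.599, 1.13, 1.19 and 0.98). PLOD1, LOXL2 and LOXL4 were smaller with them (0.92, 1.11 and 0.34). The offsets also take out any biological change that follows GC content.

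**Figure D5:**
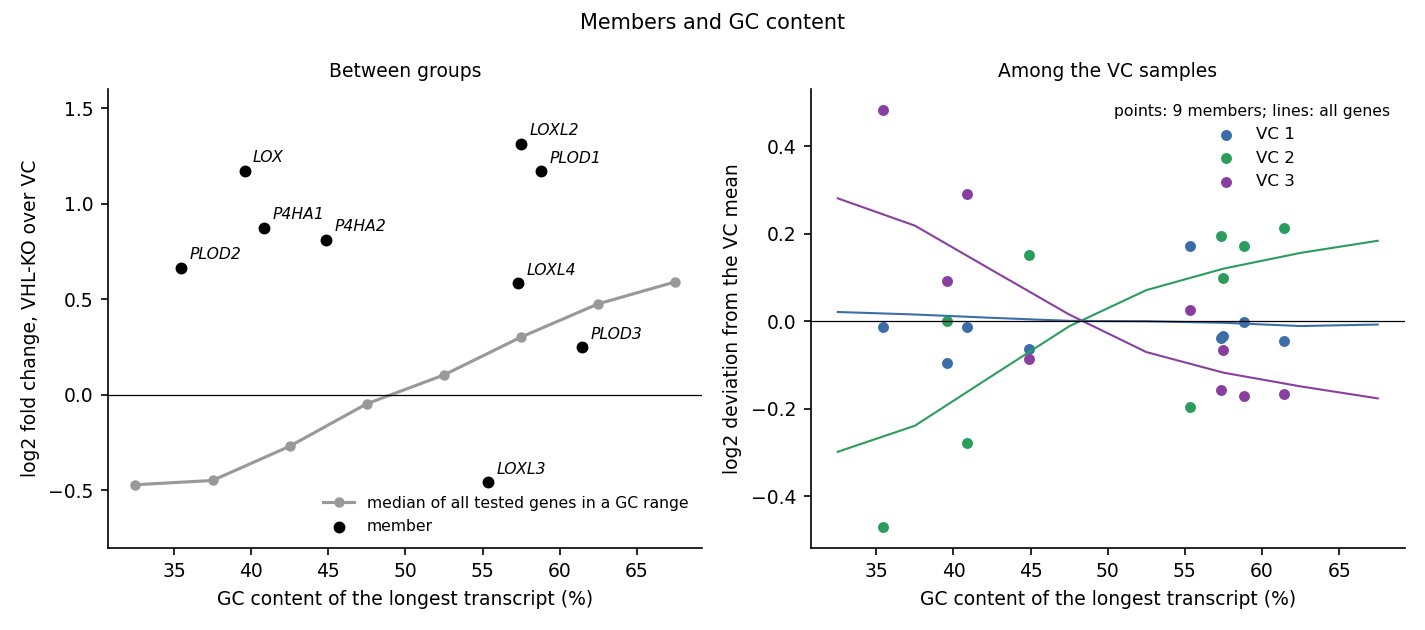
Left, log2 fold change of VHL-KO over VC of each member against the GC content (percent) of its longest transcript, with the median of all tested genes in 8 GC ranges. Right, log2 deviation of each VC sample from the VC mean for the members (points) and all genes (lines). PLOD3 and LOXL3 are the members below the line of medians, and the medians of VC replicates 2 and 3 deviate in opposite directions, which LOX, P4HA2 and LOXL3 do not follow.

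Genes that work with the prolyl hydroxylases moved in part. For comparison with this list and those below, 28.5% of all tested genes were called higher and 31.2% lower. Of 8 other prolyl hydroxylation genes, 4 were higher, 0 lower and 4 not called, with a median log2 fold change of 0.41. With library size alone the median was 0.22 with 4 higher and 2 lower, with GC and length offsets 5 were higher and 1 lower, and without VC replicate 3 the counts were 4 and 1. Upper quartile factors, or leaving out VC replicate 2, gave 5 higher and 0 lower. P4HB, the beta subunit that is also protein disulfide isomerase, was at 2624, 3022 and 2414 CPM in VC and at 5311, 5405 and 5447 CPM in VHL-KO. P4HB rose with P4HA1 and P4HA2, by 1.00 (SE 0.09, adjusted p = 6.0e-10). P3H4 (0.87), PPIB (0.55) and CRTAP (0.36), which act in prolyl 3-hydroxylase or lysyl hydroxylase complexes, were the other rises. P3H4 was at 0.49 with GC and length offsets, and PPIB and CRTAP were at 0.35 and 0.17 with library size alone. The alpha subunit P4HA3 had 0.45 (adjusted p = 0.0739) and the prolyl 3-hydroxylases P3H1, P3H2 and P3H3 had 0.09, -0.02 and -0.52, with no call.

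Of 11 genes for collagen folding, glycosylation and export, 3 (27.3%) were higher and 5 (45.5%) lower (median -0.21). Both the counts and the median depended on the processing. With GC and length offsets 5 were higher and 5 lower (median -0.0468), and with library size alone 1 was higher and 7 were lower (-0.40). The median was -0.0974 with upper quartile factors, -0.11 with genes at 10 reads or more in every sample and -0.14 without VC replicate 2. FKBP10, a prolyl isomerase that acts with PLOD2 in telopeptide hydroxylation, rose from 212.8 ± 24.2 to 513.1 ± 13.1 CPM (log2 fold change 1.27, SE 0.09, adjusted p = 2.5e-11). COLGALT2, a collagen galactosyltransferase, fell from 2.15 ± 0.233 to 0.439 ± 0.1002 CPM (-2.26). KIF13A (-0.99), TMEM131 (-0.50) and MIA2 (-0.49) were also lower, and MIA2 lost its call with GC and length offsets (-0.05, adjusted p = 0.724, range 0.000145 to 0.724).

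Of 15 genes for procollagen processing and lysyl oxidase activation, 11 were tested, with 5 higher and 2 lower (median 1.24, and 0.40 without a filter, when genes with few counts enter). BMP1, the protease that cleaves the LOX propeptide, rose from 82.2 ± 11.5 to 193.4 ± 9.55 CPM (log2 fold change 1.24, SE 0.10). PCOLCE, an enhancer of that protease, had 1.28, and both are named here after their values were seen. EFEMP2, a fibulin that binds LOX, rose from 39.4 ± 5.39 to 171.6 ± 1.601 CPM (2.12, SE 0.10). FN1, the matrix protein fibronectin, rose from 961.2 ± 50.7 to 2586 ± 280.6 CPM (1.43, SE 0.09). ADAMTS3, a procollagen protease, fell (-1.36). FBLN5 and TLL1 rested on few counts. FBLN5 had 2, 1 and 2 counts in the controls against 18, 1 and 7 after VHL-KO, a ratio of 7.61 (95% counting interval 2.87 to 25.4), and did not pass the filter without VHL-KO replicate 1. TLL1 had 9, 5 and 11 counts in the controls against 2, 0 and 0 after VHL-KO, 8.55-fold less (interval 2.13 to 74.4), and its call was lost in 6 of 13 alternatives, where its log2 fold change lay between -3.11 and -2.45 (-2.92 with all samples). Both of its VHL-KO counts came from replicate 1, and without that sample the group was at 0 and the fitted value -5.84, which is no bound. Without VC replicate 3 TLL1 did not pass the filter.

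Among the substrates more genes were lower than higher, while for cofactor supply this held without GC and length offsets. Of 8 genes for copper, iron and ascorbate supply, 1 was higher and 4 were lower (median -0.46). With GC and length offsets 1 was higher and 1 lower (median -0.14), and without VHL-KO replicate 2 the median was -0.24 with 3 lower. The copper chaperone ATOX1 rose (0.58), and the copper transporters ATP7A (-0.95), which loads lysyl oxidases, and SLC31A1 (-0.68) and the iron uptake genes TFRC (-0.47) and SLC11A2 (-0.45) fell. With GC and length offsets SLC31A1 was at -0.44, and the calls of ATP7A (-0.48, adjusted p = 0.0734), TFRC (-0.10, 0.242) and SLC11A2 (-0.18, 0.165) were lost, SLC11A2 also without VHL-KO replicate 2 (-0.31, 0.0778). TFRC was at -0.30 without VC replicate 3. Of 16 collagen and elastin genes 10 were tested, with 1 higher and 6 lower (median -0.43). The median was -0.78 with GC and length offsets, with 9 lower, and lay between -0.78 and -0.32 over the 15 alternatives. Without VC replicate 2, 2 were higher. COL4A1, a basement membrane chain, fell from 268.5 ± 26.05 to 97.4 ± 8.59 CPM (-1.46, SE 0.10). COL12A1 (-1.35), COL5A2 (-1.31) and COL6A3 (-0.995, and -0.58 without VHL-KO replicate 1) fell as well. COL18A1 rose from 654.5 ± 97.2 to 1332 ± 73.0 CPM (1.03, and 0.62 with GC and length offsets). Of the fibrillar chains in this list, COL5A2 and COL1A1 were expressed. COL1A1 went from 33.7 ± 3.76 to 25.2 ± 2.40 CPM and was called lower (-0.42, adjusted p = 0.00424, and -0.76 with GC and length offsets), while COL1A2, COL2A1, COL3A1, COL5A1 and COL5A3 had at most 1 count in any sample.

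For reference, 12 HIF-inducible genes outside collagen modification were all called, 11 higher and EGLN3 lower (-1.26), with a median log2 fold change of 2.19. NDRG1 (6.03), CA12 (3.94), ADM (3.55) and VEGFA (2.48) were among the largest, and CA9 had 0, 0 and 2 counts in the controls against 288, 247 and 233 after VHL-KO, a ratio of 562 (95% counting interval 155 to 4646). Both control counts came from VC replicate 3, and without it CA9 was at least 235-fold higher than 3 counts over the other controls. With TMM scaling the largest change among the members, 1.31 for LOXL2, was below the median of this list. BNIP3 (1.23), PDK1 (1.10), SLC2A1 (0.70) and KDM3A (0.49) rose by less than LOXL2. With GC and length offsets the largest member change was 1.599 for LOX, also below the list's median (2.19).

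Genes with the most similar profiles over the 6 samples were found for 1 member of each family, by the root mean square difference of centred log2 CPM among 8439 tested genes whose mean was 10 CPM or more. Nearest to P4HA1 were TP53INP1 (0.0491) and the noncoding RNA NORAD (0.0601). Nearest to PLOD2 were SLC25A36 (0.0807), the pseudogene MTND2P28 (0.136) and CYP1B1 (0.146). Like PLOD2, these genes were lowest in VC replicate 2 among the controls, a likeness that the search over these same samples selects for. SLC25A36 was at 12.9, 9.42 and 17.1 CPM in VC and 17.4, 21.6 and 18.3 CPM in VHL-KO. Nearest to LOX were SIPA1L2 (0.103), RPS6KA2 (0.116) and ATP9A (0.125).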

How the data were processed

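RNA-seq of Caki-1 cells gave 3 VC and 3 VHL-KO samples, grouped by the genotype and replicate numbers in the labels. The values deposited by the authors are raw read counts per gene. According to the study's methods and the submitters' processing notes, total RNA was extracted with Trizol, reads were trimmed with Trim Galore and cutadapt (at least 20 nt kept), aligned with STAR to GRCh38.p13, limited to uniquely mapped reads with SAMtools and counted with HTSeq. Annotation release, strand setting, counting mode and versions are not given in the sources used here.

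Here, the 17401 of 60708 genes that reached 10 reads in at least 1 sample were tested with edgeR 4.0.16 in R 4.3.3 (TMM factors, quasi-likelihood F test, two-sided, Benjamini-Hochberg adjustment, threshold 0.05). The study used DESeq2, an alternative here (version 1.42.0). The SE is the absolute log2 fold change divided by the square root of F. RPKM used merged exon lengths from GENCODE release 44 on GRCh38, which with GC content matched 17355 tested genes. A count of 0 allows up to 3 counts, and such limits and counting intervals cover counting error only. Python 3.11.15 with matplotlib 3.10.9 drew the figures.

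The alternatives were DESeq2, 3 other scalings, 2 filters, the replicate number as a block, offsets for GC content and length (natural splines with 5 degrees of freedom) with and without the block, and each sample left out. Named genes are all members, VHL, up to 5 genes with the largest absolute change past the threshold in each list, the most abundant gene of each marker list, and 3 nearest profiles for P4HA1, PLOD2 and LOX, of which 1 is not reported here. Named beside this rule, after their values were seen, are the alpha subunit and prolyl 3-hydroxylases without a call, BMP1, PCOLCE and EGLN3. So are BNIP3, PDK1, SLC2A1 and KDM3A, genes that overlap a member, and collagens and markers at or near 0. Members and lists were chosen with earlier results of these data known. P-values measure only the spread between these samples, which may be technical. The study describes its VHL-KO Caki-1 cells as clonal, so differences of a clone and the loss of VHL cannot be told apart here.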

Additional observations from a re-analysis of the deposited data

How the results depend on the processing

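Of the 8 members called higher, 7 kept direction and call under all 15 alternatives, and PLOD3 did in 6. PLOD3 was reversed with GC and length offsets (-0.0696) and with these offsets plus the replicate block (-0.0687). The number of members called higher was 7 or 8 and the number called lower 0 under each alternative. The median log2 fold change of the members, 0.81, was 0.92 with upper quartile factors, 0.62 with library size alone, 0.98 with GC and length offsets and 0.99 with offsets and block, and between 0.76 and 0.96 when 1 sample was left out. The cause was not tested. Upper quartile factors and library size alone also moved the median of all tested genes, from -0.01 to 0.10 and -0.20, and the share of calls that were higher, 47.7%, became 55.03% and 35.8%, so that upper quartile factors turned the balance of calls (5712 higher, 4668 lower). Called genes numbered 10394, and between 9215 and 10501 under the alternatives.

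Same-numbered samples did not deviate together (correlations 0.0627, -0.00045 and 0.0283 across 17401 genes), so the numbers were not treated as pairs. With the replicate block, 10284 genes were called, all 8 members kept their calls, and the members' median was 0.81. LOXL1, at 0 counts, could not be tested, and LOXL3, with counts of 18 to 57 in each sample, has an interval that includes 0.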
